A study of Mus musculus with 18 samples.

Results

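The semaphorins, plexins and neuropilins are a guidance system of ligands and receptors, described here across the cell types of the embryonic mouse forebrain with and without MYT1L. The members were chosen by gene symbol. All 31 symbols were found among the 55335 genes measured: 20 semaphorins, 9 plexins and 2 neuropilins. The rule uses no measured value, although the group was chosen with earlier results of these data known, and the members were left out of the genes used to cluster the nuclei.

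RNA was sequenced from single nuclei, labelled by combinatorial barcoding, of the forebrains of E14 embryos of the MYT1L S710fsX mouse line, which carries a frameshift in Myt1l in the germline of C57BL/6 mice. The groups were WT, Het (a mutant and an intact copy) and KO (no intact copy), with 3 embryos each, 9 in all. Each embryo gave 2 libraries, from run 1 and run 2, so 18 libraries were summed to 9 animals. No group received a treatment, and the frameshift was the only difference the labels give. The mutation was present in every cell, so effects that arise within a cell type and between cell types cannot be told apart, and the dissected forebrain mixed cortical and subcortical cells. The genotype tag of all 9 libraries of run 1 read WT, against the titles of those titled Het or KO. Groups were taken from the titles, which the tags of run 2 matched.

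Semaphorins are secreted or membrane-bound proteins that steer axons and migrating neurons, most often by repelling them. Plexins are their main receptors and act on small GTPases and the cytoskeleton, while neuropilins are co-receptors that bind most of the secreted class 3 semaphorins and pair with A-type plexins. In the developing forebrain these proteins are known for guiding cortical axons, for sorting interneurons on their way from the ganglionic eminences and for shaping blood vessels.

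After filtering, 194645 nuclei of 261143 barcodes were kept, with a median of 2523 UMIs (transcript molecules counted once each) and 1573 genes. The animals had 14820 to 26042 nuclei and 42947153 to 74060736 UMIs each. Among the barcodes, 3429 were shared by libraries of different animals and 311 by the 2 runs of an animal. Clusters were named from marker lists, and each name is written as "-like". The neuron classes were excitatory neuron-like (55000 nuclei), inhibitory neuron-like (49421) and Cajal-Retzius-like (2020). The progenitor classes were radial glia-like (35325), inhibitory progenitor-like (3274) and excitatory intermediate progenitor-like (20623), and there were 312 microglia and macrophage-like nuclei. Each of these classes had at least 20 nuclei in every animal. In all 7 classes, every gene of its own marker list was above its level over all nuclei. The clusters were named from the same lists, so this is no independent check. Some clusters were weak members of their class. The excitatory neuron-like ones led by Sim1 (4841 nuclei) and Il1rapl2 (1116) had 3 of 8 markers detected, at mean log2 folds of -0.0 and -0.15. Another 27449 nuclei (14.1%) stayed unnamed, and 724 of the 725 diencephalic neuron-like nuclei came from Het 1. Xist and the Y-linked genes made WT 3 female and the other 8 animals male, whereas the study's design describes mixed sexes for each genotype, so sex cannot be told apart from WT 3.

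Myt1l, the targeted gene, is a zinc finger transcription factor of neurons. A frameshift need not remove its RNA, so its level is no check of genotype. Myt1l was at 1948, 2234 and 2118 CPM (the summed count divided by the summed UMIs of the class in that animal, scaled to 1000000) in excitatory neuron-like nuclei of the 3 WT animals, 2210, 2471 and 2420 CPM in Het and 2510, 2822 and 2555 CPM in KO. Every KO animal was above every WT animal, but the log2 difference of 0.35 (SE 0.08) did not pass edgeR's quasi-likelihood test in excitatory neuron-like nuclei (adjusted p = 0.0704). With the replicate number in the fit it did (adjusted p = 4.8e-05). In deep-layer-like nuclei, a part of that class, Myt1l passed without the block as well (0.36, adjusted p = 0.018).

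The ligands Sema3e and Sema6b were the members called in excitatory neuron-like nuclei, as described below, and Sema3a is described with them for Cajal-Retzius-like nuclei. The windows around their annotated transcription starts are shown because MYT1L is known to bind DNA at a short AAGTT core. They are RefSeq sequences of the GRCm38.p6 build, each running from 250 bases before to 50 bases after the start, 5′ to 3′, and capitals mark AAGTT or its reverse complement AACTT.
Sema3e, chr5:14025026-14025325, + strand: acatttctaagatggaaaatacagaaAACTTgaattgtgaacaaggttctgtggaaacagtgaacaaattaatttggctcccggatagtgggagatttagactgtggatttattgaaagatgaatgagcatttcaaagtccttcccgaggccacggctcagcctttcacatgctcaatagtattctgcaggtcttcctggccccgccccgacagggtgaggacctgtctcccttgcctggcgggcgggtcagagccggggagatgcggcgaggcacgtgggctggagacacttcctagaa
Sema6b, first start, chr17:56140294-56140593, - strand: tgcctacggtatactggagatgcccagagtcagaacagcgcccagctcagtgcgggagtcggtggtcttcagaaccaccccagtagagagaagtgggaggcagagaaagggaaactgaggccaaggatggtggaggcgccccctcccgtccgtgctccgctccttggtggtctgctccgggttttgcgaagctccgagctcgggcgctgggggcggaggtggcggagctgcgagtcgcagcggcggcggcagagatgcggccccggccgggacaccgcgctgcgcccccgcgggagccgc
Sema6b, second start, chr17:56133803-56134102, - strand: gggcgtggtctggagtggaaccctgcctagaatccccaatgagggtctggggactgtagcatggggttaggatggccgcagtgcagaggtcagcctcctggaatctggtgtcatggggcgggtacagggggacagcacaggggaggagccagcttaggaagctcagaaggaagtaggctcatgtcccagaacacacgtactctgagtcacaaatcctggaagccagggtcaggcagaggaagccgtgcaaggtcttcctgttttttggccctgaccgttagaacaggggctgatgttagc
Sema3a, chr5:13396534-13396833, + strand: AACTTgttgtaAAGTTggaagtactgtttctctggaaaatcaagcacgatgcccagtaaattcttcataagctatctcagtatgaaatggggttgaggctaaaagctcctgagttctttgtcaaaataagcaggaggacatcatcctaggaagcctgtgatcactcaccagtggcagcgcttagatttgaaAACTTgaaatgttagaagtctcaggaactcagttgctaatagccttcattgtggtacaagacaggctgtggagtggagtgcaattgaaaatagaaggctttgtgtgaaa
The Sema3a window and the second Sema6b window lie inside their genes as GENCODE vM21 places them, Sema3a at chr5:13125414-13602565, so the RefSeq start of Sema3a is not the first annotated start. Sema3e had 1 match and Sema3a had 3, while both Sema6b windows had 0. Over all 37 windows of the 26 members in the table, 11 windows held a match, beside 12918 of 32851 windows (39.3%) of all genes. These letters in a window are a description and not a bound site.

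The secreted class 3 ligands differed widely in where they were transcribed in WT. Highest and next refer here and in the following paragraphs to the 7 classes, and the rarer classes follow after them. Sema3a, a repellent of cortical axons that acts through Nrp1, was highest in radial glia-like nuclei, at 318 ± 5.89 CPM (mean ± SD, n = 3 animals here and for all levels below), above 261 ± 8.32 CPM in excitatory intermediate progenitor-like nuclei. Sema3e, the ligand of Plxnd1, was highest in inhibitory progenitor-like nuclei at 168 ± 51.2 CPM, with Cajal-Retzius-like nuclei next at 77.7 ± 29.3 CPM. Among the inhibitory neuron-like clusters the one led by Gbx1 had a mean of 370.6 CPM of Sema3e in WT, and the next by its WT mean, led by Drd2, 24.6 CPM. Sema3c, known to attract cortical axons, was at 168 ± 23.5 CPM in excitatory neuron-like and 167 ± 20.04 CPM in excitatory intermediate progenitor-like nuclei, which did not differ beyond their spread. Sema3f, a ligand of Nrp2 that repels interneurons, was highest of the 7 classes at 45.0 ± 5.36 CPM in inhibitory neuron-like nuclei, with striatal-like nuclei at 76.9 ± 10.2 CPM. Sema3d was at 19.8 ± 4.19 CPM in Cajal-Retzius-like and 14.7 ± 1.90 CPM in radial glia-like nuclei, with overlapping animals. Sema3b and Sema3g were close to 0 in all 7 classes, with highest means of 1.88 and 3.01 CPM.

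Among the membrane-bound ligands, Sema6a stood out by class. It was at 1793 ± 154 CPM in Cajal-Retzius-like nuclei, the reelin-secreting neurons of the cortical surface, and the next of the 7 classes, radial glia-like nuclei, was at 247 ± 8.33 CPM. Sema5a and Sema5b were highest in progenitors, Sema5a at 1104 ± 110 CPM in radial glia-like and Sema5b at 912 ± 18.2 CPM in inhibitory progenitor-like nuclei. Sema6b and Sema6d showed the opposite order: Sema6b was at 22.8 ± 0.84 CPM in inhibitory neuron-like nuclei and 0.98 ± 0.72 CPM in radial glia-like nuclei, and Sema6d was at 916 ± 136 CPM in inhibitory and 897 ± 63.4 CPM in excitatory neuron-like nuclei, which overlapped. Sema7a, a membrane-anchored semaphorin that promotes axon growth, was at 42.7 ± 2.68 CPM in excitatory neuron-like nuclei, above the other 6 classes. For Sema4a, Sema4b, Sema4c, Sema4d, Sema4f, Sema4g and Sema6c the highest class overlapped the next. Sema4b, Sema4c and Sema4d were highest in the 312 microglia and macrophage-like nuclei, where they had 53.5, 51.0 and 142.5 UMIs in all.

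Several receptors differed between newborn and deep-layer-like neurons. Plxna4, which forms a receptor for class 3 and class 6 semaphorins, was at 2193 ± 165 CPM in excitatory neuron-like nuclei and 71.2 ± 23.1 CPM in radial glia-like nuclei. Within the excitatory neuron-like nuclei it was at 4729 ± 268 CPM in those named newborn and upper-layer-like and 256 ± 65.9 CPM in those named deep-layer-like. Nrp1 followed the same order, with 1022 ± 151 CPM in newborn and upper-layer-like and 20 ± 2.54 CPM in deep-layer-like nuclei, and so did Sema3c, with 407 ± 50.7 and 21.4 ± 1.84 CPM. The newborn and upper-layer-like nuclei pool 3 unlike clusters, led by Gm13403, Gm10862 and Tfap2d, the last with 5632 of the 15009 nuclei. Summed over all animals, these had 2081, 970 and 353 CPM of Nrp1 and 507, 97.4 and 716 CPM of Sema3c. Each was above the deep-layer-like clusters. Plxna2 was highest in excitatory intermediate progenitor-like nuclei (1732 ± 60.8 CPM). Nrp2 was at 227 ± 5.36 CPM in Cajal-Retzius-like and 218 ± 19.2 CPM in inhibitory neuron-like nuclei, which overlapped. Plxnd1, best known from blood vessels, was at 107 ± 30.4 CPM in Cajal-Retzius-like nuclei and 29.9 ± 4.54 CPM in excitatory neuron-like nuclei. Plxnc1, the receptor of Sema7a, was highest in inhibitory neuron-like nuclei at 167 ± 6.17 CPM. Plxna1, Plxna3 and Plxnb1 had a highest class that overlapped the next. Plxnb3 reached 1.33 CPM at most. Plxnb2 was highest in microglia and macrophage-like nuclei at 241 ± 111 CPM, with inhibitory progenitor-like nuclei next at 117 ± 7.33 CPM. By class, Nrp1 was highest in excitatory intermediate progenitor-like nuclei at 727 ± 44.6 CPM, with microglia and macrophage-like nuclei next at 572 ± 122 CPM.

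**Figure D1:**
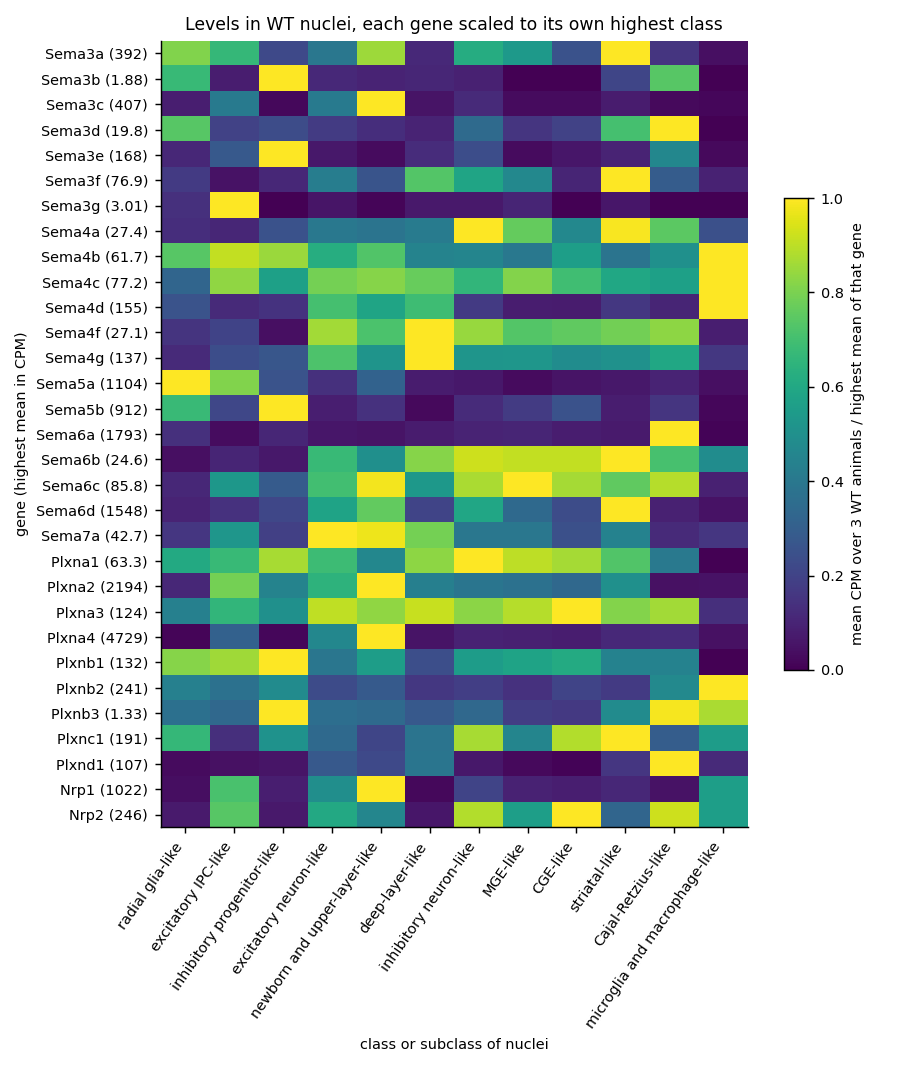
Mean level of each of the 31 genes in WT animals (n = 3) by class and subclass, coloured relative to the gene's own highest class and labelled in CPM. Rows can be read across but not against each other, since genes differ in length; Sema6a is brightest in Cajal-Retzius-like nuclei (1793 CPM) and Sema3e in inhibitory progenitor-like nuclei (168 CPM).

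Nuclei of blood vessels and glia were few, so their levels were summed over all 9 animals, with exact Poisson 95% intervals that cover counting error only. In the 63 endothelial-like nuclei Sema3g, a ligand made by vessels, was at 144 CPM (27 UMIs, interval 95 to 209.8) and these nuclei held 9.03% of all its UMIs. Plxnd1 was at 470 CPM there (376.9 to 579.0), beside 15.7 CPM over all nuclei. Sema6a reached 1304.5 CPM (1146 to 1478.7) in the endothelial-like nuclei, and Sema7a 85.5 CPM (16 UMIs, 48.8 to 138.8). Sema3f was at 64.3 CPM (53.6 to 76.6) in the diencephalic neuron-like nuclei, nearly all from Het 1. In the 89 oligodendrocyte progenitor-like nuclei Sema6d was at 2920 CPM (2724 to 3127), beside 674 CPM over all nuclei. Nrp1 was at 715 CPM (655.3 to 778.7) in the microglia and macrophage-like nuclei, beside 330 CPM over all nuclei. Myt1l, which microglia should lack, was at 141 CPM (115.5 to 171.1) in those nuclei against 1376 CPM over all nuclei. Plxna4 was at 194 CPM (163.8 to 228.9) there against 1121 CPM over all nuclei, and Plxna2 at 133 CPM (108 to 162.1) against 1014 CPM. All 3 were well below their level over all nuclei, and the part of free RNA in these values was not tested.

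The main question was which ligands and receptors differ without MYT1L. KO and WT were compared within each class by edgeR's quasi-likelihood test on counts summed per animal, fitted over all genes of the class and all 9 animals. A gene was called at a Benjamini-Hochberg adjusted p under 0.05 and a log2 difference beyond 0.2. A class sum cannot tell fewer expressing nuclei from less RNA per nucleus. The study states that its E14 animals came from several litters, without tying replicate numbers to them. The labels do not say that a replicate number marks a litter either. Same-numbered excitatory and inhibitory neuron-like samples deviated together, so the fit with the replicate number as a block is given where it changes a call.

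In excitatory neuron-like nuclei 2 members fell in KO, Sema3e and Sema6b, and none rose. That was 6.9% of the 29 members tested, beside 1.04% of all 18895 genes. With the replicate number in the fit, 9 members were called (31%), 3 higher and 6 lower, beside 6.64% of all genes. The median log2 difference over the 29 members was -0.05, beside -0.01 over all genes, with 11 members higher and 18 lower. Sema3b and Sema3g had too few counts to be tested.

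Sema3e lies on chr5:14025276-14256689 of GRCm38 (+ strand), where the annotation also places 3 other genes, 1 of them on the opposite strand. In excitatory neuron-like nuclei it was at 10.8, 9.43 and 12.9 CPM in the 3 WT animals, 9.17, 9.09 and 9.49 CPM in Het and 7.18, 4.93 and 5.77 CPM in KO. The 3 KO animals were all below the WT and Het animals. The log2 difference between KO and WT was -0.87 (SE 0.14, 95% interval -1.18 to -0.57, adjusted p = 0.0128). The change missed the threshold without WT 3 (-0.75, adjusted p = 0.0578), the female animal, and without KO 2 (-0.77, adjusted p = 0.0645). These levels are low: in the microglia and macrophage-like nuclei Sema3e was at 7.9 CPM over all 9 animals (Poisson 95% interval 2.8 to 17.4). The part of free RNA in them was not tested.

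Deep-layer-like nuclei are named for the cortical neurons whose axons leave the cortex. In them Sema3e was at 20.5, 17.9 and 25.97 CPM in WT, 17.9, 17.6 and 15.7 CPM in Het and 6.52, 8.08 and 10.3 CPM in KO. Every KO animal was below every other animal. The log2 difference was -1.30 (SE 0.18, adjusted p = 0.00241) and stayed past the threshold when any one animal was left out (adjusted p 0.00439 to 0.017). Run 2 alone gave -1.22 (adjusted p = 0.00701) and run 1 alone -1.62 (adjusted p = 0.149). Of the 2 deep-layer-like clusters, the one led by Hs3st3b1 had 32.5, 25.4 and 44.0 CPM in WT and 10.1, 10.6 and 15.7 CPM in KO. The other had 10.4, 11.5 and 11.3 CPM in WT and 3.7, 5.9 and 6.1 CPM in KO, so both were lower in every KO animal. Over the 12 clusters of excitatory neuron-like nuclei, the mean of Sema3e was lower in KO in 11. All KO animals were below all WT animals in 3 of the 12. Deep-layer-like nuclei made up 22.25 ± 0.92% of excitatory neuron-like nuclei in WT and 20.84 ± 1.05% in KO.

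Sema6b lies on chr17:56123085-56140343 (- strand) and overlaps no other annotated gene. It is a transmembrane ligand for A-type plexins. In excitatory neuron-like nuclei it was at 18.3, 14.4 and 17.0 CPM in WT, 13.7, 13.2 and 13.8 CPM in Het and 10.2, 10.1 and 11.5 CPM in KO. The 3 groups did not overlap, with Het between WT and KO. The log2 difference between KO and WT was -0.61 (SE 0.09, 95% interval -0.81 to -0.41, adjusted p = 0.0101), and without WT 3 it missed the threshold (-0.59, adjusted p = 0.0527). Its mean was lower in KO in all 12 excitatory neuron-like clusters, as were those of Sema3f and Sema4a. All KO animals were below all WT animals in 6 of the 12. The clusters are parts of the class tested, from the same animals, so this is no further support. In deep-layer-like nuclei Sema6b was at 22.7, 16.9 and 20.8 CPM in WT, 13.2, 18.2 and 14.9 CPM in Het and 12.7, 10.8 and 10.5 CPM in KO. KO was below WT in every animal there, at -0.81 (SE 0.17, adjusted p = 0.0224). That call was lost without WT 1, WT 3, KO 2 or KO 3 in turn (adjusted p 0.0798 to 0.0975). It was also lost in run 2 alone (adjusted p = 0.0516) and in run 1 alone, and was kept in 12 of 18 alternative settings. In the microglia and macrophage-like nuclei Sema6b was at 4.1 CPM (3 UMIs, Poisson 95% interval 0.8 to 11.9). The part of free RNA in its levels was not tested.

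**Figure D2:**
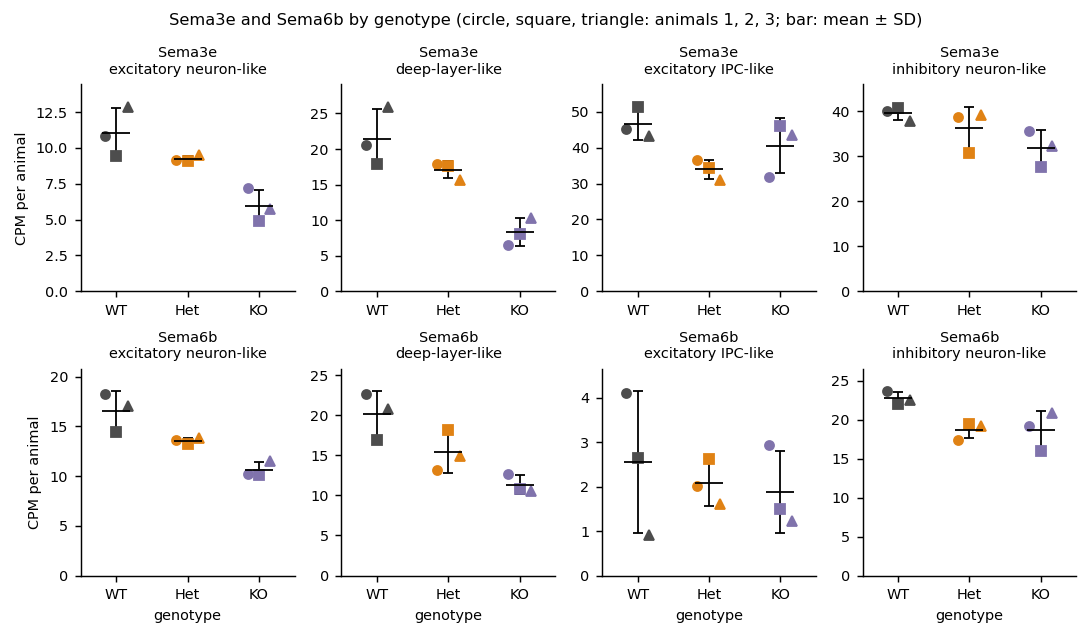
Level of Sema3e and Sema6b (CPM, axes from 0) by animal in excitatory neuron-like, deep-layer-like, excitatory intermediate progenitor-like and inhibitory neuron-like nuclei; circle, square and triangle are animals 1, 2 and 3, and bars give the mean ± SD. In deep-layer-like nuclei the KO animals sit at 6.52 to 10.3 CPM for Sema3e, below all WT and Het animals.

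In run 1 alone neither ligand passed in excitatory neuron-like nuclei (Sema3e -0.66, adjusted p = 0.615, and Sema6b -0.60, adjusted p = 0.619). In run 2, which held 156679 of the nuclei, both did (Sema3e -0.93, adjusted p = 0.019, and Sema6b adjusted p = 0.0155). Of the marker lists of other cell types, the 6 diencephalic neuron markers summed to 60.9 to 66.5 CPM in excitatory neuron-like nuclei of WT and 77.1 to 105.3 CPM in KO, with no marker at 0 and all 6 higher on average in KO. Those of inhibitory progenitors summed to 12.3 to 16.4 CPM in WT and 11.0 to 11.8 CPM in KO. Their part in the result was not tested. In deep-layer-like nuclei both of these lists overlapped between WT and KO, while the 5 caudal ganglionic eminence markers summed to 115.9 to 165.1 CPM in WT and 166.4 to 199.0 CPM in KO. All 5 were higher on average in KO and none was at 0. The 5 erythroid markers also did not overlap in deep-layer-like nuclei, at 9.6 to 9.9 CPM in WT and 10.7 to 15.1 CPM in KO, with 4 of the 5 higher on average in KO and none at 0. The part of both lists in the result was not tested.

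**Figure D3:**
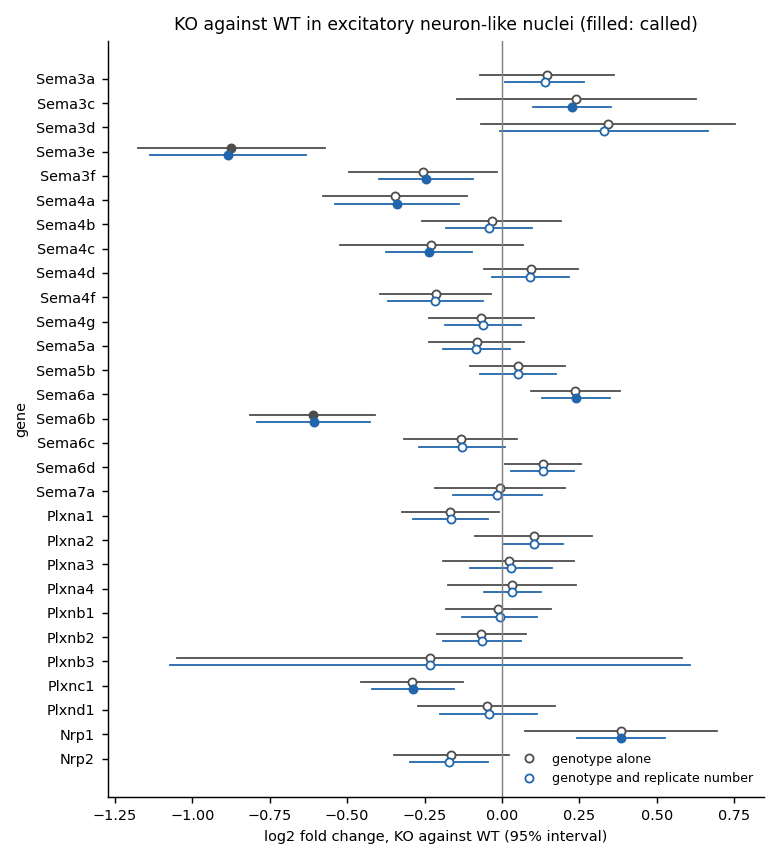
Log2 difference between KO and WT in excitatory neuron-like nuclei for the 29 members tested, with 95% intervals, without and with the replicate number in the fit; filled symbols are called. Sema3e (-0.87) and Sema6b (-0.61) are the called members without it, and the intervals narrow with it.

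The 7 members that passed in excitatory neuron-like nuclei only with the replicate number in the fit moved less. Nrp1, the co-receptor of Sema3a, was at 426, 582 and 511 CPM in WT, 488, 616 and 543 CPM in Het and 634, 765 and 550 CPM in KO. KO 3 lay within the WT range, but each KO animal was above the WT animal of its own number. The log2 difference was 0.38 (SE 0.14, adjusted p = 0.271) and became 0.39 (SE 0.07, adjusted p = 0.00103) in the blocked fit. Without KO 2 the unblocked difference was 0.23. In the same nuclei the newborn and upper-layer markers summed to 2938.5, 3568.3 and 3137.6 CPM in WT and 3307.4, 4239.5 and 3239.7 CPM in KO. Of these 8 markers, 3 were higher on average in KO, and their part in the result was not tested. Sema6a, a ligand of Plxna2 and Plxna4, was at 116, 97.3 and 110 CPM in WT, 126, 116 and 113 CPM in Het and 130, 121 and 124 CPM in KO. All KO animals were above all WT animals, at 0.24 (adjusted p = 0.128, blocked 0.00702). Sema3c was at 148, 194 and 162 CPM in WT, 147, 225 and 188 CPM in Het and 164, 249 and 172 CPM in KO. Its groups overlapped, and the blocked fit gave 0.23 (adjusted p = 0.026, against 0.651 without the block). The unblocked difference of 0.24 was 0.0038 without KO 2, 0.15 without WT 1 and 0.38 without WT 2.

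The 4 that fell in the blocked fit of excitatory neuron-like nuclei were Plxnc1, Sema3f, Sema4a and Sema4c. Plxnc1 was at 73.2, 60.0 and 62.4 CPM in WT, 63.4, 57.9 and 64.6 CPM in Het and 49.2, 49.9 and 57.8 CPM in KO. KO was below WT in every animal, at -0.29 (adjusted p = 0.107, blocked 0.00692). Sema4a, a membrane-bound ligand, was at 12.5, 10.4 and 9.94 CPM in WT, 10.7, 8.90 and 9.51 CPM in Het and 8.84, 8.07 and 8.49 CPM in KO, again without overlap of KO and WT. It differed by -0.34 (adjusted p = 0.176, blocked 0.0358), and run 1 alone turned the direction, to 0.0444. Sema3f was at 38.4, 27.6 and 31.8 CPM in WT, 33.5, 27.0 and 28.1 CPM in Het and 26.8, 23.6 and 29.9 CPM in KO, where KO 3 was within the WT range. Its blocked difference was -0.25 (adjusted p = 0.043, against 0.36). Unblocked it was -0.26, -0.14 without WT 1 and -0.02 in run 1 alone. Sema4c, a ligand of Plxnb2, was at 53.2, 64.6 and 65.1 CPM in WT, 46.2, 54.5 and 57.0 CPM in Het and 41.1, 48.2 and 64.4 CPM in KO. KO 3 lay again within the WT range, and the blocked difference was -0.24 (adjusted p = 0.0331, against 0.548). Unblocked it was -0.23, -0.10 without KO 1 and -0.40 without KO 3.

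**Figure D4:**
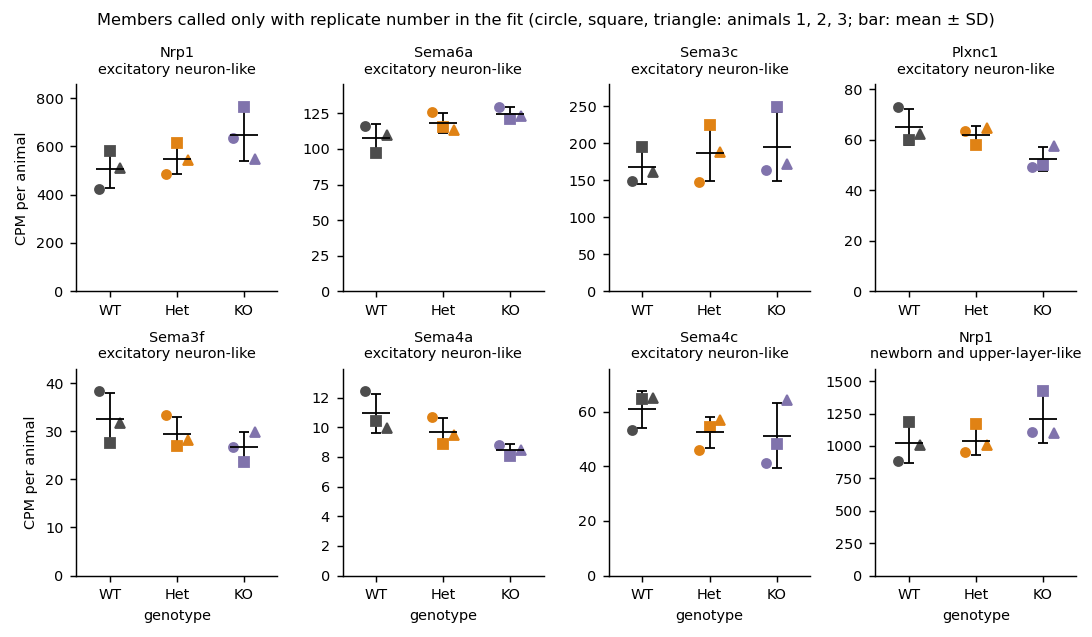
Level (CPM, axes from 0) by animal of the members that passed only with the replicate number in the fit, in excitatory neuron-like nuclei and, for Nrp1, also in newborn and upper-layer-like nuclei; circle, square and triangle are animals 1, 2 and 3, and bars give the mean ± SD. Nrp1 in KO sits at 634, 765 and 550 CPM, each above the WT animal with the same symbol.

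In deep-layer-like nuclei the calls of Sema3e and Sema6b were 2 of 28 members (7.1%), beside 1.72% of 13458 genes. In the blocked fit 7 members were called (25%), 3 higher and 4 lower, beside 6.56% of genes. Sema6a was at 140, 140 and 133 CPM in WT, 145, 176 and 147 CPM in Het and 172, 178 and 168 CPM in KO. All KO animals were above all WT animals, by 0.34 on the log2 scale (adjusted p = 0.0734, blocked 0.00188). Nrp1 was at 22.9, 18.4 and 18.7 CPM in WT, 28.3, 23.2 and 25.3 CPM in Het and 52.2, 24.1 and 21.0 CPM in KO. KO 1 was far above the other animals, and KO 3 was below WT 1. The difference was 0.67 (adjusted p = 0.268, blocked 0.0151), and 0.20 without KO 1. These levels are low beside the 330 CPM of Nrp1 over all nuclei, and the part of RNA from other cells in them was not tested. Sema6d, a ligand of Plxna1 and Plxna4, was at 378, 256 and 321 CPM in WT, 375, 329 and 345 CPM in Het and 489, 285 and 400 CPM in KO (blocked 0.31, adjusted p = 0.0126, against 0.386). Plxna4 was at 330, 204 and 235 CPM in WT, 310, 230 and 300 CPM in Het and 222, 136 and 257 CPM in KO (blocked -0.31, adjusted p = 0.0391, against 0.55), with KO 3 above WT 3. Sema4c was at 52.7, 62.9 and 62.2 CPM in WT, 42.8, 60.6 and 56.0 CPM in Het and 36.7, 44.6 and 59.4 CPM in KO (blocked -0.31, adjusted p = 0.042, against 0.449). The groups overlapped for these 3 members, and their unblocked differences moved by over 1.5 times with single animals left out. Sema6d went from 0.32 to 0.13 without KO 1, 0.20 without WT 2 and 0.49 without KO 2. Plxna4 went from -0.30 to -0.10 without WT 1, -0.085 without KO 2 and -0.49 without KO 3, and run 1 alone turned its direction, to 0.20. Sema4c went from -0.30 to -0.16 without KO 1 and -0.50 without KO 3, and was -0.06 in run 1 alone. In newborn and upper-layer-like nuclei no member was called among 28, beside 0.0148% of genes called. There, 6 members had an unadjusted p under 0.05. The share of all genes at that threshold is not given here, so this count is no result about the members. In the blocked fit of these nuclei Nrp1 alone rose, from 881, 1182 and 1003 CPM in WT to 1105, 1424 and 1103 CPM in KO (0.29, adjusted p = 0.0033), beside 1.65% of genes. Het was at 950, 1165 and 1006 CPM, and KO overlapped WT. Its unblocked difference of 0.29 was 0.18 without WT 1 and 0.13 without KO 2.

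In inhibitory neuron-like nuclei none of 28 members was called by edgeR, beside 0.016% of 18732 genes, and 0 were called by DESeq2. The 4 members at an unadjusted p under 0.05 stand without the share of all genes at that threshold. Sema3e was at 40.2, 40.7 and 37.9 CPM in WT and 35.6, 27.6 and 32.4 CPM in KO, without overlap (log2 difference -0.29, adjusted p = 0.719). Sema6b differed by -0.26 (adjusted p = 0.745). The difference between the 2 neuron classes was tested itself, as the interaction of class and KO. No member passed, beside 0.0452% of genes (Sema3e 0.57, 95% interval 0.27 to 0.88, adjusted p = 0.349, and Sema6b 0.33, interval 0.11 to 0.56, adjusted p = 0.525), so a difference between the neuron classes was not shown. In the blocked fit Sema4f fell, from 25.6, 21.9 and 21.4 CPM in WT to 18.5, 14.1 and 18.6 CPM in KO (-0.40, adjusted p = 0.0328, against 0.519), beside 1.02% of genes. Het was at 20.9, 17.6 and 20.02 CPM, and KO and WT did not overlap.

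Medial ganglionic eminence-like neurons are interneurons, many of which pass around the striatum on their way to the cortex. None of 28 members was called in them by edgeR, beside 0.0677% of genes called. The 3 at an unadjusted p under 0.05 stand without the share of all genes at that threshold. In the blocked fit Sema3a fell, from 228, 198 and 203 CPM in WT to 172, 130 and 156 CPM in KO (-0.43, adjusted p = 0.0207, against 0.283), beside 0.752% of genes. All KO animals were below all WT animals, and Het was at 203, 189 and 255 CPM. In striatal-like and caudal ganglionic eminence-like neurons no member was called in either fit, beside 0.0042% of genes called without and 0.248% with the block. The 3 and 2 members at an unadjusted p under 0.05 likewise stand without such a share of all genes.

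Progenitors and microglia gave no call. In the 3 progenitor classes and the microglia and macrophage-like nuclei 0 members were called by edgeR or DESeq2, with 1 at an unadjusted p under 0.05, Sema4f in excitatory intermediate progenitor-like nuclei. Of all genes, 0% were called without and 0.023% with the block, and the share at the unadjusted threshold is not given here. Enough counts for the test were found for 22 members in inhibitory progenitor-like nuclei and for 8 in the microglia and macrophage-like ones. Sema3e in excitatory intermediate progenitor-like nuclei differed by -0.17 (adjusted p = 0.987). In the cluster of these nuclei led by Eomes it was at 73.8, 90.2 and 72.7 CPM in WT and 50.2, 71.6 and 69.5 CPM in KO, with every KO animal below every WT animal. In the cluster led by Sypl2 its means were 58.2 CPM in WT and 60.0 CPM in KO.

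In Cajal-Retzius-like nuclei 20 of 26 members were lower in KO and the median log2 difference was -0.16, beside 0.00 over all genes, but no member passed by edgeR. At an unadjusted p under 0.05 there were 6, a count without the share of all genes at that threshold. Of 8694 genes, 0.127% were called. In the blocked fit Sema3e, Sema3a and Sema3d fell (11.5% of members, beside 0.69% of genes). Of these, Sema3d passed the low-count filter only through the WT animals, where it was high. Its call and its part of that share are therefore a description and no support for a fall. Sema3f, the other class 3 ligand tested there, differed by -0.37 in that fit (adjusted p = 0.774). In these nuclei same-numbered samples deviated together less (correlations 0.041 to 0.187), and there were 144 to 321 nuclei an animal.

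Sema3e in Cajal-Retzius-like nuclei was at 92.5, 96.7 and 43.9 CPM in WT, 61.2, 72.2 and 44.8 CPM in Het and 37.1, 7.10 and 26.1 CPM in KO. All KO animals were below all others, at -1.66 (SE 0.33, adjusted p = 0.0505, blocked 0.00472). Without WT 3 it was called (-1.90, adjusted p = 0.0134). Sema3a was at 64.1, 43.4 and 72.7 CPM in WT, 50.8, 47.6 and 39.4 CPM in Het and 20.1, 26.9 and 34.0 CPM in KO, again with KO below all others. It differed by -1.11 (SE 0.25, adjusted p = 0.0725, blocked 0.0227). Summed over all animals, Sema3a was at 212 CPM over all nuclei and 26.7 CPM in microglia and macrophage-like nuclei (Poisson 95% interval 16.3 to 41.4). The part of free RNA in its levels was not tested. Sema3d was at 15.2, 20.6 and 23.5 CPM in WT, 5.15, 6.65 and 2.61 CPM in Het and 3.04, 0 and 7.04 CPM in KO. The count of 0 in KO 2 allows up to 5.32 CPM (3 counts), and both mutant groups were below WT in every animal. The KO difference of Sema3d was -2.21 (SE 0.53, adjusted p = 0.0893, blocked 0.0398), and -3.57 without KO 3. Since only WT cleared the low-count filter, this difference is a description. Nrp1, the co-receptor of Sema3a, was at 59.5, 26.3 and 65.9 CPM in WT, 38.6, 21.5 and 44.5 CPM in Het and 34.1, 21.3 and 30.99 CPM in KO. Its groups overlapped (-0.73, adjusted p = 0.477). Nrp1 was at 330 CPM over all nuclei, and the part of free RNA in its levels here was not tested.

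**Figure D5:**
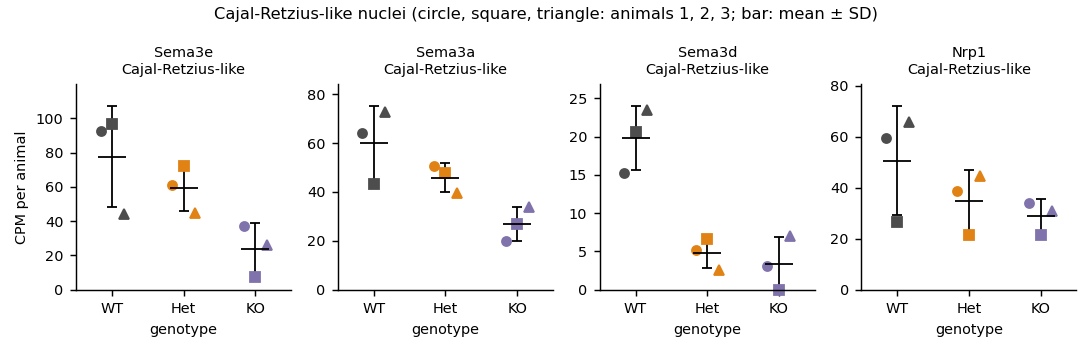
Level (CPM, axes from 0) by animal of Sema3e, Sema3a, Sema3d and Nrp1 in Cajal-Retzius-like nuclei; circle, square and triangle are animals 1, 2 and 3, and bars give the mean ± SD. For Sema3a the KO animals sit at 20.1 to 34.0 CPM, below all WT and Het animals.

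The KO change in Cajal-Retzius-like nuclei was then compared with that in the other neurons of the same animals by the interaction of class and KO. Against excitatory neuron-like nuclei it was lower by log2 differences of -2.60 for Sema3d (SE 0.54, adjusted p = 0.00463), -1.19 for Sema3a (SE 0.23, adjusted p = 0.00165) and -1.05 for Nrp1 (SE 0.27, adjusted p = 0.049). These were 10.3% of the 29 members, beside 0.317% of genes. Sema3d is part of that share, and its fall in Cajal-Retzius-like nuclei is a description, as given above. Sema3e, lower in both classes, differed by -0.82 (adjusted p = 0.483). Against inhibitory neuron-like nuclei Sema3e was lower by -1.41 (SE 0.29, adjusted p = 0.031), 1 of 28 members, beside 0.0785% of genes. DESeq2 gave Nrp1 an adjusted p of 0.754 and gave none for the other 3. Sema3a kept its call with any animal left out (adjusted p = 1.13e-05 to 0.0134), and so did Sema3d, which stood at -4.03 without KO 3. Sema3d lost its call with the upper limits on UMIs and genes lifted (-1.68, adjusted p = 0.0596). The call of Nrp1 was lost without WT 1 (-0.75), WT 3 (-0.88) or KO 2 (-0.79), in run 2 alone, with doublets kept and with the upper limits lifted, with adjusted p-values of 0.0617 to 0.62. That of Sema3e was lost without WT 1 (adjusted p = 0.0537), WT 2 (0.0503) or KO 2 (0.0743) and in run 2 alone (0.0586).

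Between Het and WT no member was called in the fits with the filter on low counts. Over the 7 classes and 5 subclasses 0 members were called by edgeR with or without the block, or by DESeq2, beside 0% of genes without and 0.0149% with the block. In excitatory neuron-like nuclei 3 of 29 members had an unadjusted p under 0.05, a count without the share of all genes at that threshold. Of the members there, 14 were higher and 15 lower than WT. Sema6b there was -0.27 (SE 0.09) and Sema3e -0.24 (SE 0.13), both with an adjusted p of 1. In Cajal-Retzius-like nuclei Sema3d was -2.11 (SE 0.53, adjusted p = 1), where it passed the low-count filter only through WT. Without that filter Sema3d was called there, as given below with the share of all genes.

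The proteins that carry a semaphorin signal into the cell were read from a list of 49 genes, of which 47 were tested in excitatory neuron-like nuclei. None was called by edgeR, with a median log2 difference of -0.02, and DESeq2 called 1. In the blocked fit 3 of the 47 were called, a share near the 6.64% of all genes called there. Nrcam, an adhesion molecule that forms a receptor complex with neuropilins, was at 517, 454 and 480 CPM in WT, 476, 457 and 464 CPM in Het and 375, 386 and 438 CPM in KO. KO was below all other animals (-0.25, adjusted p = 0.0704, blocked 0.00411). Cntn2, an axonal adhesion molecule, was at 654, 892 and 792 CPM in WT, 737, 905 and 855 CPM in Het and 731, 981 and 1004 CPM in KO. Its groups overlapped (blocked 0.24, adjusted p = 0.00457, against 0.524). Cfl1, the actin-severing protein cofilin, was at 45.2, 65.95 and 58.4 CPM in WT, 40.1, 50.8 and 59.01 CPM in Het and 36.2, 43.8 and 58.9 CPM in KO. KO 3 was not below WT 3, and the groups overlapped (blocked -0.28, adjusted p = 0.03, against 0.593). The 5 collapsin response mediator proteins, which act downstream of class 3 semaphorins, differed by -0.25 to 0.00 and none passed in either fit.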

How the data were processed

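Single nucleus RNA sequencing libraries from E14 mouse forebrain were prepared by combinatorial barcoding, and the authors mapped reads to mm10 and counted genes with the kit maker's pipeline. The deposited matrices hold expected counts, that is estimated counts of UMIs per gene and nucleus, of which 6.7 to 8.71% in each library were not whole. The counts were not normalized. The submitters' processing notes name Seurat 4.3.0, DESeq2 1.38.3 and Scanpy 1.12.0, with no role given here. The annotation release, and whether counting used strand, were not given in the sources used here. On GENCODE vM21, 18 members overlap another gene, 12 of them on the opposite strand, so reads of such pairs may not be told apart.

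Nuclei with 800 to 6000 UMIs, 300 to 3000 genes, at most 1% mitochondrial counts and log genes over log UMIs not under 0.9 were kept (200918 barcodes, 76.9%). Likely doublets were the 5% of all barcodes of each library, before these limits, with the highest Scrublet score. Of the barcodes within the limits, 6273 were removed as such. Nuclei were clustered with scanpy 1.11.5 (3000 variable genes, 50 components, 20 neighbours, Leiden resolution 2, igraph 0.11.9) into 49 clusters. The variable genes left out the members, Myt1l, Y-linked genes, Xist and Tsix. A cluster was named from at least 3 detected markers (10 CPM and 1.5-fold over all other nuclei), with no more markers of another class among its 10 leading genes. For subclasses the fold was taken over the other nuclei of the same class. After the data were seen, 2 rules were added: rare classes needed 2 own markers among the leading genes, and mixed non-neural clusters were split into 3 groups each.

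Counts were summed per animal and class over both runs and rounded to whole numbers. They were tested with edgeR 4.0.16 (quasi-likelihood test, TMM, filterByExpr, genotype over all 9 animals, R 4.3.3), with Benjamini-Hochberg adjustment over all genes of the class. The standard error was taken from the log2 difference and the F statistic. CPM are the summed counts over the UMIs of that class and animal, scaled to 1000000. The files held expected counts where whole counts had been planned for, hence the rounding. DESeq2 1.42.0, RLE scaling, no filter on low counts, the replicate block, 6 animals, each run, kept doublets, lifted upper limits and each animal left out were the alternatives. Same-numbered samples deviated together in every pair of genotypes (correlation of deviations 0.113 to 0.281 in excitatory and 0.12 to 0.317 in inhibitory neuron-like nuclei), so the numbers were taken to pair the samples, although the labels do not say what they mark. On simulated counts with 200 changed genes drawn, 34.3% of genes changed by 0.5 on the log2 scale and 71.1% of those changed by 1 were recovered in excitatory neuron-like nuclei, against 14.6% and 58.8% in Cajal-Retzius-like nuclei.

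The members, gene lists and marker lists were chosen with earlier results of these data known. Members called in any class or subclass, with or without the block, are given with their value in every animal. Partners are given for those called, and Myt1l as the targeted gene. Promoter windows came from RefSeq, and 26 of the 31 members were in that table.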

Additional observations from a re-analysis of the deposited data

Results flagged for a closer look

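Among the 31 members, 4 differences in the KO change between neuron classes passed the edgeR interaction test, fitted with the animal as a term. Between Cajal-Retzius-like and excitatory neuron-like nuclei the log2 KO change of Sema3d differed by -2.60 (adjusted p = 0.00463), from 0.34 in excitatory neuron-like to -2.21 in Cajal-Retzius-like nuclei. For Sema3a it differed by -1.19 (adjusted p = 0.00165), from 0.15 to -1.11, and for Nrp1 by -1.05 (adjusted p = 0.049), from 0.38 to -0.73. Between Cajal-Retzius-like and inhibitory neuron-like nuclei the change of Sema3e differed by -1.41 (adjusted p = 0.031), from -0.29 to -1.66. The Cajal-Retzius-like values rest on 144 to 321 nuclei an animal, and Sema3d had 0 counts in KO 2. In the fit of Cajal-Retzius-like nuclei Sema3d passed the low-count filter only through WT. Its -2.21 and its part of the shares below are therefore a description and no support for a fall. The calls were 10.3% of members beside 0.317% of genes against excitatory, and 3.6% beside 0.0785% against inhibitory neuron-like nuclei. Among alternative settings with an adjusted p, Sema3a was called in 14 of 14 and Sema3d in 13 of 14. Sema3e was called in 10 of 14 and Nrp1 in 8 of 15. DESeq2 gave Nrp1 an adjusted p of 0.754 and gave none for the others. The cause, and the part of free RNA in the Cajal-Retzius-like values, were not tested.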

How the results depend on the processing

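The labels give the 3 genotypes shared replicate numbers. With the replicate number in the fit (the pairing), the members called went from 2 to 9 in excitatory neuron-like nuclei, from 0 to 1 in inhibitory, from 0 to 3 in Cajal-Retzius-like and from 2 to 9 over the subclasses, and the partners from 0 to 3 of 47, a share near the 6.64% of all genes called in that fit. It changed no call in the other 4 classes or between Het and WT. Over all genes of excitatory neuron-like nuclei it raised the calls from 196 to 1254, and DESeq2 gave 341. The share of all genes called rose from 0.016% to 1.02% in inhibitory and from 0.127% to 0.69% in Cajal-Retzius-like nuclei. It rose from 1.72% to 6.56% in deep-layer-like and from 0.0148% to 1.65% in newborn and upper-layer-like nuclei. In medial ganglionic eminence-like nuclei it rose from 0.0677% to 0.752%. Without a filter on low counts the member calls were 4 in excitatory neuron-like nuclei (708 of 41742 genes), 3 in Cajal-Retzius-like nuclei (97 of 26793), 8 over the subclasses (747 of 170328 gene tests), 12 for the class differences (367 of 127760), 2 partners and 1 for Het (Sema3d in Cajal-Retzius-like nuclei, 206 of 232176). In run 1 alone they were 0 in excitatory neuron-like nuclei, over the subclasses and for the class differences, and Cajal-Retzius-like nuclei were too few there to be fitted. Run 2 alone gave 1 in Cajal-Retzius-like nuclei, 1 over the subclasses and 2 for the class differences. RLE scaling and kept doublets each gave 1 in Cajal-Retzius-like nuclei. Lifting the upper limits gave 2 there and 2 for the class differences. The counts for single runs, RLE scaling, kept doublets and lifted limits stand without the share of all genes called. They are therefore no result about the members. DESeq2 gave 0 class differences, with no adjusted p for 3 of the 4, and 1 partner. With each animal left out, the calls ranged from 0 to 2 in excitatory (0 without WT 3, 1 without KO 2), 0 to 1 in Cajal-Retzius-like nuclei, 1 to 3 over the subclasses, 2 to 6 for the class differences and 0 to 1 for partners, and stayed 0 for inhibitory neuron-like nuclei, for the other 4 classes and for Het. Over all genes of excitatory neuron-like nuclei they ranged from 58 to 267. No such range is given here for the other classes, the subclasses or the class differences, so their counts are no result about the members. In run 1 alone Sema4a in excitatory neuron-like nuclei turned to 0.0444 and Plxna4 in deep-layer-like nuclei to 0.20. The causes were not tested. Run 1 held 37966 nuclei against 156679, and in 312 microglia and macrophage-like nuclei 23 members were too low to be tested.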

Other observations

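Single clusters held more of a member than its class mean shows. These are levels summed over all 9 animals, with no test, since the clusters were made from the expression of the same nuclei. Over the 49 clusters that held at least 100 nuclei after the mixed ones were split (4 smaller ones left out), Sema6d was highest at 2520 CPM in the striatal-like cluster led by Rarb, against a median of 488.7 CPM over clusters. The same cluster had the highest Sema3a, at 497.5 CPM (median 132.2 CPM), and the highest Sema3d, at 25.8 CPM (median 3.8 CPM). Among those left out, 91 mural and fibroblast-like nuclei were higher, with 681.9 CPM of Sema3a and 106.6 CPM of Sema3d, and 89 oligodendrocyte progenitor-like nuclei had 2920 CPM of Sema6d and 46.1 CPM of Sema3d. Nrp1 was at 2081 CPM in the newborn and upper-layer-like cluster led by Gm13403, with a median of 174.5 CPM. Nrp2 reached 880.6 and 611.6 CPM in the excitatory neuron-like clusters led by Cemip and Kcnj6 and by Il1rapl2, with a median of 118.5 CPM, and the latter cluster also had the highest Plxnc1, at 345.5 CPM (median 98 CPM). Sema6a was at 678.5 CPM in the radial glia-like cluster led by Col22a1 and 612.5 CPM in an unnamed cluster led by Rspo2, a Wnt pathway activator, with a median of 173.5 CPM. Plxnd1 was at 98.8 CPM in an unnamed cluster of 3482 nuclei led by Tafa1, close to its 98 CPM in Cajal-Retzius-like nuclei. Sema4c was at 231.7 and 216.2 CPM in 2 clusters of mural and fibroblast-like nuclei led by Abcc9, with a median of 53 CPM.

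In the excitatory intermediate progenitor-like cluster led by Sypl2 the means of Sema3e were 58.2 CPM in WT, 40 CPM in Het and 60 CPM in KO, and in the cluster led by Eomes 78.9, 60.3 and 63.8 CPM, with every KO animal below every WT animal in the latter. These cluster differences were not tested.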
